A study of Mus musculus with 16 samples.

Results

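A set of 2889 narrow regions carried H3K27me3 at gene promoters in the peak list of young hematopoietic stem cells (HSCs) and had no counterpart in the list of aged HSCs. They were chosen by position and by the measured peak calls: an H3K27me3 region of the young list on chromosomes 1 to 19, at most 2000 bp wide, within 1 kb of a protein-coding transcription start site and without a single base of overlap with any H3K27me3 region of the aged list. The young list held 63143 regions, of which 50640 lay on these chromosomes, 47901 of those were narrow enough and 4104 of these were at promoters. The 2889 young-only promoter regions were 70.4% of these 4104, and the remaining 1215, which overlapped an aged region, are called kept promoter regions here. A further set, 38919 narrow young-only regions farther than 1 kb from any start site, is called distal.

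The HSCs came from pooled bone marrow of C57BL/6 mice aged 10 weeks (young) or 20 months (aged), sorted as c-kit+ Sca-1+ Flt3- CD48- CD150+ CD34- cells of the Lin- IL-7- fraction. The labels give no genetic change or treatment for either group, and the study's methods give the mice as female. Chromatin immunoprecipitation with sequencing (ChIP-seq) was run for H3K27me3, H2AK119ub1 and H3K4me3, with 2 libraries per mark and age and 2 inputs per age among 16 libraries. Only 1 pooled peak list per mark and age was used here, so no spread between replicates was measured, no difference between ages was tested, and every interval below covers counting over regions or genes only. The peak names of the broad lists (H3K27me3, H2AK119ub1) carry 1 library number while those of H3K4me3 carry a pair, so it is uncertain whether both libraries entered the broad lists. Peak lists carry no read counts, so depth is unknown. The lists differed in length with age: 63143 young against 20419 aged regions for H3K27me3, 2593 against 17771 for H2AK119ub1, and 11377 against 6724 for H3K4me3.

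H3K27me3 is written by Polycomb repressive complex PRC2 and H2AK119ub1 by PRC1, and both mark silent genes, above all developmental regulators with CpG-rich promoters. H3K4me3 marks the start sites of active or poised genes, and a promoter with H3K4me3 together with H3K27me3 is called bivalent. In HSCs, Polycomb marks lie on genes of other tissues and of differentiated blood cells, which the stem cell does not use.

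The cell label was checked at promoters. H3K4me3 was listed at 3 of 6 genes of the HSC program in young HSCs and at 4 of 6 in aged HSCs. These were Hlf, Mecom and Meis1 at both ages, with Kit in the aged list only. Ly6a (Sca-1) and Slamf1 (CD150), both used to sort the cells, had no H3K4me3 peak at either age. Among 4 genes negative in the sort, Cd34 alone had young H3K4me3, and among genes of other blood cells Ebf1, a B cell factor, was listed at both ages. Peak presence gives no expression level, so purity cannot be read from it. A young-only region lay at the promoter of Flt3, a receptor of early progenitors selected against in the sort, and of Cd3e, a T cell receptor subunit.

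The sequences under 8 of the regions are shown because these regions ranked highest by −log10 q-value, overall or among those with young H2AK119ub1 or with young H3K4me3 and aged H2AK119ub1. They differ in CpG content, on which later results turn. Each run is taken from the middle of the region or from a stretch of it outside annotated untranslated exons, in build mm10, read 5′ to 3′ on the strand of the named gene, with CpG dinucleotides in capitals. Ephb1 is shown from chr9:102355649-102355888 on the minus strand (2 CpG). Ina is chr19:47014103-47014342, plus strand (8 CpG). Nkain4 is chr2:180955143-180955382, minus strand (5 CpG). P2rx5 is chr11:73159799-73160038, plus strand (5 CpG). Cygb is chr11:116654644-116654883, minus strand (7 CpG). B3gat2 is chr1:23762635-23762767, plus strand (8 CpG in 133 bases). Dchs2 is chr3:83127666-83127905, plus strand (10 CpG). Rab3b is chr4:108879392-108879631, plus strand (9 CpG). All runs but that of B3gat2 hold 240 bases.
Ephb1: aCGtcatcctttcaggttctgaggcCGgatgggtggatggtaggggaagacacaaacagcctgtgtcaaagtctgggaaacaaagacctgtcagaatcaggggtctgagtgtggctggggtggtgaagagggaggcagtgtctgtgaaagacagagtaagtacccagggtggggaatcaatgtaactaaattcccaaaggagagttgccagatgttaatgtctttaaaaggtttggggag
Ina: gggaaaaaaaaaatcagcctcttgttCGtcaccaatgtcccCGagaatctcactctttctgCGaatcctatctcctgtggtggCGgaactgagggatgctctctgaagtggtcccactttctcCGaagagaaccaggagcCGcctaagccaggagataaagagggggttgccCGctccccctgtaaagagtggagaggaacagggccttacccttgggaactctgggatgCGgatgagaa
Nkain4: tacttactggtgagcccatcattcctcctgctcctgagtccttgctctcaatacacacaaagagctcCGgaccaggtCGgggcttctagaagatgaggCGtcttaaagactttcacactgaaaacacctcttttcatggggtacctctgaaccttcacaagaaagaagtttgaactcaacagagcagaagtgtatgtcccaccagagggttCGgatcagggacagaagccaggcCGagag
P2rx5: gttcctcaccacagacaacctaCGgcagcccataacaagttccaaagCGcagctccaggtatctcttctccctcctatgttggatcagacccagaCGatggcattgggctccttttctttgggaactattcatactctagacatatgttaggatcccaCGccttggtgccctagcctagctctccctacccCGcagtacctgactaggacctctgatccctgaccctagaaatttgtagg
Cygb: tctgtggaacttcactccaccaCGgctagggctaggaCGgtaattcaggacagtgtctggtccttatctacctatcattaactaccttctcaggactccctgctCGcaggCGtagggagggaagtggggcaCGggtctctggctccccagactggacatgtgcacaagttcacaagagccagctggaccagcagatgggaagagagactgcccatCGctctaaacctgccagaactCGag
B3gat2: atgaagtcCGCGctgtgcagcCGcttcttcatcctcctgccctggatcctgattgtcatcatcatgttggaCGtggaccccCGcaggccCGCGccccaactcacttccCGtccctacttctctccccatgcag
Dchs2: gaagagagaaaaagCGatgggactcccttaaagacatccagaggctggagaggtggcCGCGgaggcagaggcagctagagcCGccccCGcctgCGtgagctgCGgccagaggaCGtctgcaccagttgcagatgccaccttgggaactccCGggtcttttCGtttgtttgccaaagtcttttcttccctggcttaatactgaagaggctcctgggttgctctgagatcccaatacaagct
Rab3b: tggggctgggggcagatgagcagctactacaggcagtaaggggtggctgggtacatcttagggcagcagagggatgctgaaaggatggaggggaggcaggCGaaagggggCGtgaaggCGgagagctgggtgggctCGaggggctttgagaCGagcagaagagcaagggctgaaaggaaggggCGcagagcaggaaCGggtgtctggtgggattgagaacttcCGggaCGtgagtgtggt

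The highest-ranked region lay upstream of Ephb1, a receptor tyrosine kinase for B-type ephrins. It spanned chr9:102355607-102355931, 325 bp of intergenic sequence 914 bp from the nearest start site. Its fold enrichment was 4.97 and its −log10 q-value 6.46, the latter being the caller's adjusted p-value of the young list. Its ratio of observed to expected CpG, the CpG count relative to that predicted from C and G content, was low at 0.154. The nearest aged H3K27me3 region was 1680 bp away, and neither H3K4me3 nor H2AK119ub1 was listed over it at either age.

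The next 9 regions by −log10 q-value were at genes of varied function. Ina, a neuronal intermediate filament gene that shares this region with Nt5c2, a nucleotidase gene, had a −log10 q-value of 6.28 at chr19:47014000-47014445. Nkain4, a partner of the sodium pump, followed with 6.26 at chr2:180954732-180955794. P2rx5, an ATP-gated ion channel gene, had 6.21 at chr11:73159509-73160328. All of these lay within 600 bp of an aged H3K27me3 region, at 186, 45 and 555 bp. By contrast the region of Myo5b, a motor protein of vesicle recycling with a value of 6.02, was 378195 bp from the nearest aged region and carried a young H3K4me3 peak. Pmp22, a myelin protein gene, had 5.91 in a region that covered a start site (chr11:63131346-63132350). The region of Papolb, a poly(A) polymerase of the testis, had 5.78, and that of Wnt3a, a WNT ligand, had 5.76. Nxph2, which encodes a neurexin ligand, had 5.69 and Krt2, an epidermal keratin, 5.45. Of these 10 regions, 2 overlapped aged H2AK119ub1 (Ina and Pmp22), 1 overlapped young H2AK119ub1 (P2rx5) and 1 overlapped young H3K4me3 (Myo5b).

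Regions on either side of each limit of the rule were as follows. The widest within it were at Hes2 (1995 bp, fold enrichment 3.17) and Jhy (1994 bp, 3.26), and the first beyond it were at Unc80 (2003 bp, 3.60) and Adamts9 (2022 bp, 4.17). At the distance limit, regions at Gjd3 and Zfp518a lay 1000 bp from a start site and those nearest Sbf2 and Kctd1 lay 1001 and 1002 bp away. The region of Rgs7 adjoined an aged region and that of Nr2e1 was 3 bp from one, whereas regions at Ptprz1 and Tmem171 were placed among the kept ones by 1 bp of overlap. Of the 1215 kept regions, 46 were overlapped by at most 50 bp, and the median kept region had 37.1% of its length covered. The next widest young-only region, 1989 bp, lay near Ccdc92 and Zfp664. A further 122 of 1235 wider promoter regions had no aged overlap and stand outside the rule.

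Young-only promoter regions were narrow and weak relative to kept ones. These are quantities the choice of members draws on, so the values are descriptive. The median width was 503 bp against 1092 bp in kept regions and 362 bp in distal ones. The median fold enrichment was 3.19 against 3.44 and 3.06, and the median −log10 q-value 2.17 against 2.78 and 1.88. The share of narrow promoter regions that were young-only was 93.9% at −log10 q-values of 1 to 1.5 and 43.8% at 4 or more. It was 92.3% of regions under 300 bp and 35.5% of those from 1500 to 2000 bp. Young-only status was thus most frequent at the weakest and narrowest young calls, but 43.8% of the strongest class also had no aged counterpart.

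**Figure D1:**
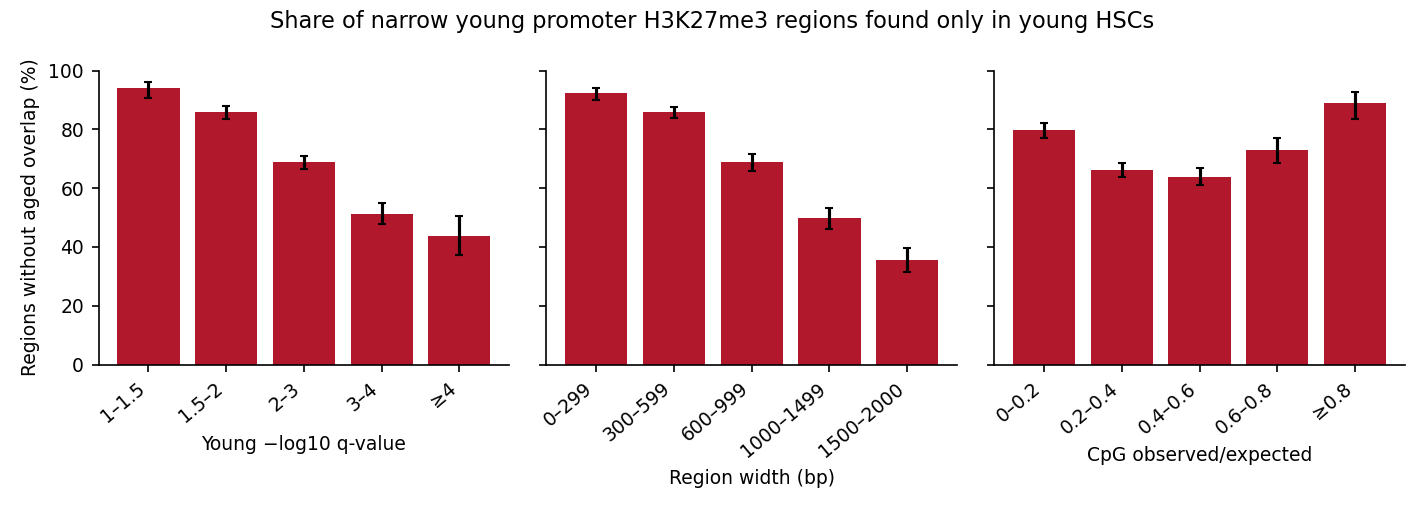
Share of the 4104 narrow young promoter H3K27me3 regions without aged overlap, in percent, by young −log10 q-value (left), region width in bp (middle) and CpG observed/expected ratio (right); bars are shares and error bars 95% Wilson intervals over regions. The share is 93.9% in the weakest class and 43.8% in the strongest, and along CpG content it is lowest, 64.0%, at ratios of 0.4 to 0.6.

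The distance to the nearest aged region was broadly spread. Its median was 9455 bp, with quartiles of 1097 and 119727 bp. Of the 2889 regions, 679 (23.5%) had an aged H3K27me3 region within 1 kb, 775 had one between 1 and 10 kb, 634 between 10 and 100 kb, and 801 farther away than 100 kb. In young HSCs themselves, 11.8% of the regions (340) had no other young H3K27me3 region within 10 kb, against 4.03% of kept regions.

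By position, 51.0% of the region centres lay in introns, 30.3% between genes, 9.55% in untranslated exons, 6.75% in coding exons and 2.46% in noncoding exons. A start site lay inside 554 regions, 19.2% (interval 17.8 to 20.7%), against 25.3% (23.0 to 27.9%) of the wider kept regions. Centres were about as frequent upstream as downstream, with 52.1% downstream in young-only and 52.4% in kept regions. Within 250 bp of the start site, 8.34% of centres lay upstream and 8.69% downstream, against 6.26% and 4.53% in kept regions. Kept regions thus had fewer centres beside the start site than young-only regions, and more at 1250 to 1500 bp downstream (7.98% against 2.73%), a bin that narrow regions can hardly reach under the rule.

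**Figure D2:**
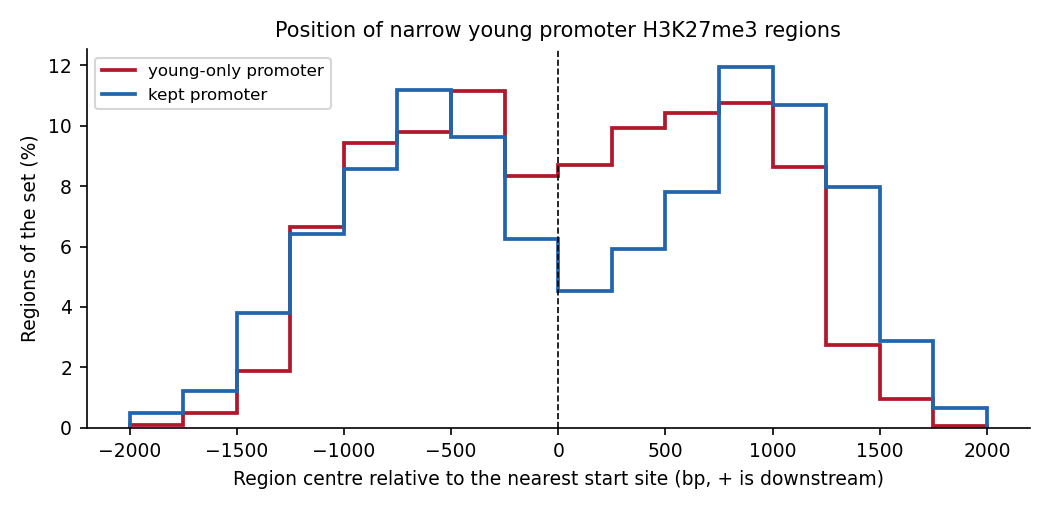
Position of region centres relative to the nearest protein-coding start site (bp, positive is downstream) as the percentage of each set in 250-bp bins, for 2889 young-only and 1215 kept promoter regions. Young-only centres show a shallow dip at the start site (8.34% and 8.69% in the flanking bins) where kept centres show a deeper one (6.26% and 4.53%).

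CpG content differed more from distal regions than from kept ones. The median observed/expected CpG ratio of young-only promoter regions was 0.334 (interval 0.321 to 0.347), against 0.362 (0.346 to 0.373) in kept and 0.174 in distal regions. Median GC content was 51.2% in both promoter sets and 45.6% in distal regions. The spread was wider in young-only than in kept regions. Ratios below 0.1 occurred in 8.55% of young-only and 2.06% of kept regions, and ratios of 0.6 or more in 16.2% (14.9 to 17.6%) and 11.1% (9.47 to 13.0%). Accordingly, the young-only share was 79.8% below a ratio of 0.2, 66.2% from 0.2 to 0.4, 64.0% from 0.4 to 0.6, 73.1% from 0.6 to 0.8 and 89.0% at 0.8 or more. Both the CpG-poorest and the CpG-richest narrow promoter regions were thus those most often missing from the aged list. They were also the narrowest. Median widths of young-only regions were 409 bp below 0.2 and 383 bp at 0.8 or more, against 514 to 603 bp in the classes between. Young-only status was itself most frequent at narrow regions, and the part of width in this pattern was not tested. Repeat-masked sequence made up a median of 9.40% of young-only, 10.8% of kept and 13.1% of distal regions.

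Short motifs were counted in the central 300 bp of each region, on both strands, as a description of the letters. The GC box GGGCGG was present in 16.9% of young-only, 16.1% of kept and 3.86% of distal regions. The cAMP response element TGACGTCA was in 0.485%, 0.329% and 0.177%. The AP-1 motif TGANTCA was in 6.54%, 6.26% and 8.84%, and the STAT motif TTCNNNGAA in 8.62%, 7.08% and 9.70%. The E-box CANNTG, in which N is any base, was in 77.8%, 78.2% and 81.7%. The RUNX motif TGTGGT was in 18.4%, 18.9% and 21.3%, and the GATA motif AGATAA in 11.5%, 11.4% and 17.4%. The promoter sets were close to each other in these shares, and the GC box was the motif with the greatest ratio between promoter and distal regions.

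The other marks were then overlapped with the regions. H3K4me3 was listed at 147 young-only regions in young HSCs, 5.09% (interval 4.34 to 5.95%), against 5.80% of all 4104 narrow promoter regions and 7.49% (6.14 to 9.11%) of kept ones. In aged HSCs it was listed at 74, 2.56%, against 2.66% of all narrow promoter regions. Of these, 120 had the mark in the young list only, 47 in the aged list only and 27 in both. The aged H3K4me3 list is shorter, and with both lists limited to their 6724 highest peaks the shares were 2.77% and 2.56%. In a fixed window of 300 bp at the region centre, which reaches beyond the 625 young-only and 52 kept regions narrower than that, young H3K4me3 was found at 3.50% of young-only and 3.70% of kept regions, with overlapping intervals.

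H2AK119ub1 was listed at 95 young-only regions in young HSCs, 3.29% (2.70 to 4.00%), against 4.31% of all narrow promoter regions and 6.75% (5.47 to 8.30%) of kept ones. In aged HSCs, where H3K27me3 was not listed at these regions, H2AK119ub1 was listed at 678, 23.5% (22.0 to 25.0%), against 28.8% of all narrow promoter regions, 41.6% (38.9 to 44.4%) of kept ones and 2.68% of distal ones. Of the young-only regions, 628 had it in the aged list only, 50 at both ages and 45 in the young list only. The difference between ages moved with list length: with both lists limited to 2593 peaks, the shares were 3.29% in young and 3.95% (3.30 to 4.72%) in aged HSCs. The difference between young-only and kept regions remained in the same direction under that limit, at 3.95% against 9.55% (8.02 to 11.3%). It was also seen at the central 300 bp, with 16.7% (15.4 to 18.1%) against 29.5%. By width, the shares in young-only and kept regions were 11.0% and 11.5% (6 of 52, interval 5.40 to 23.0%) under 300 bp, 17.4% and 26.4% from 300 to 600 bp, and 30.3% and 33.0% from 600 to 1000 bp. They were 37.9% and 48.8% from 1000 to 1500 bp and 49.4% and 54.7% above. Neither mark was listed at either age at 2064 of the 2889 regions.

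**Figure D3:**
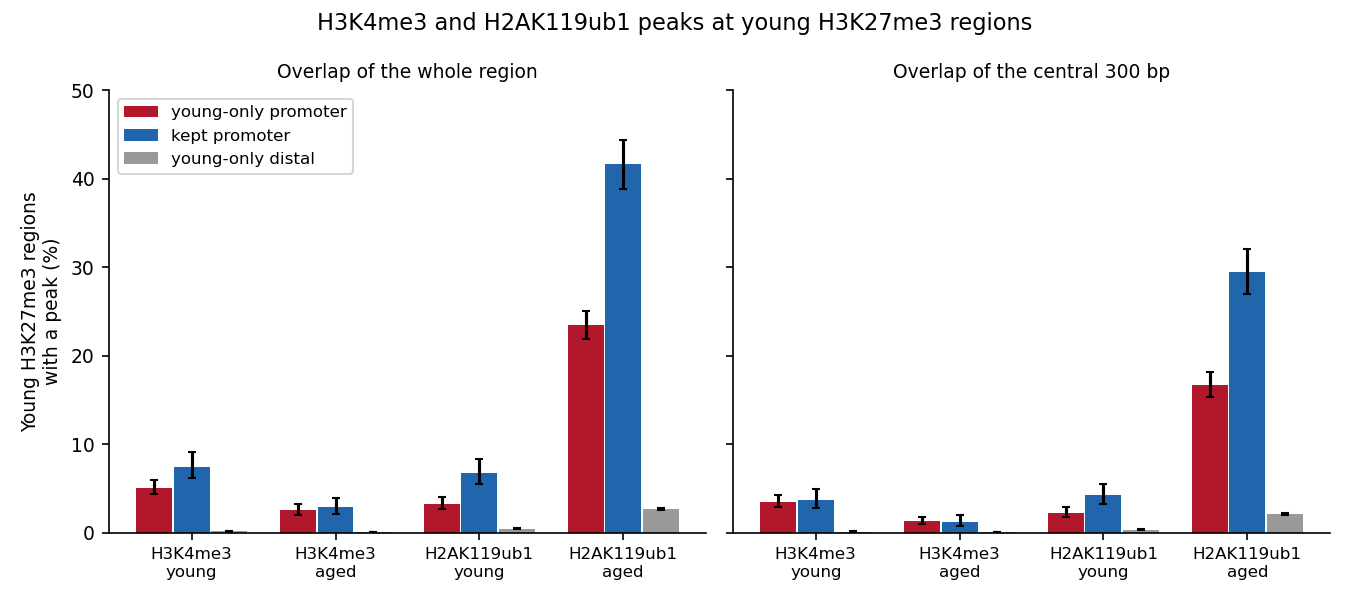
Percentage of young H3K27me3 regions that overlap a peak of H3K4me3 or H2AK119ub1 in young or aged HSCs, over the whole region (left) and its central 300 bp (right); bars are shares of 2889 young-only promoter, 1215 kept promoter and 38919 young-only distal regions, with 95% Wilson intervals. Aged H2AK119ub1 is the most frequent overlap, at 23.5%, 41.6% and 2.68% of the sets over the whole region.

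Aged H2AK119ub1 at young-only regions varied with CpG content. Its share was highest at ratios of 0.4 to 0.6 (interval 32.2 to 39.4%). That interval overlapped those at 0.6 to 0.8 (26.3 to 36.4%) and at 0.8 or more (20.4 to 34.3%). It was listed at 11.5% of the 745 young-only regions with a CpG ratio below 0.2, at 21.1% of 998 from 0.2 to 0.4 and at 35.7% of 678 from 0.4 to 0.6. The share was 31.1% of 315 regions from 0.6 to 0.8 and 26.8% of 153 at 0.8 or more. The median widths of these classes, in the same order, were 409, 548, 603, 514 and 383 bp. Over the central 300 bp, the corresponding shares were 8.72%, 14.4%, 25.7%, 21.9% and 20.3%, and kept regions had 13.8%, 27.3%, 37.4%, 38.8% and, over 19 regions only, 26.3%. Young H3K4me3 was at 0.671%, 2.71%, 8.26%, 14.9% and 7.84% of young-only regions in the same classes. The 678 regions with aged H2AK119ub1 had a median CpG ratio of 0.426, width of 755.5 bp and −log10 q-value of 2.44, against 0.303, 447 bp and 2.09 in the 2211 without it. Young H3K4me3 was at 10.0% (7.99 to 12.5%) of the former and 3.57% (2.88 to 4.43%) of the latter. The wider size of the first group bears on any overlap, and its part in this difference was not tested.

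**Figure D4:**
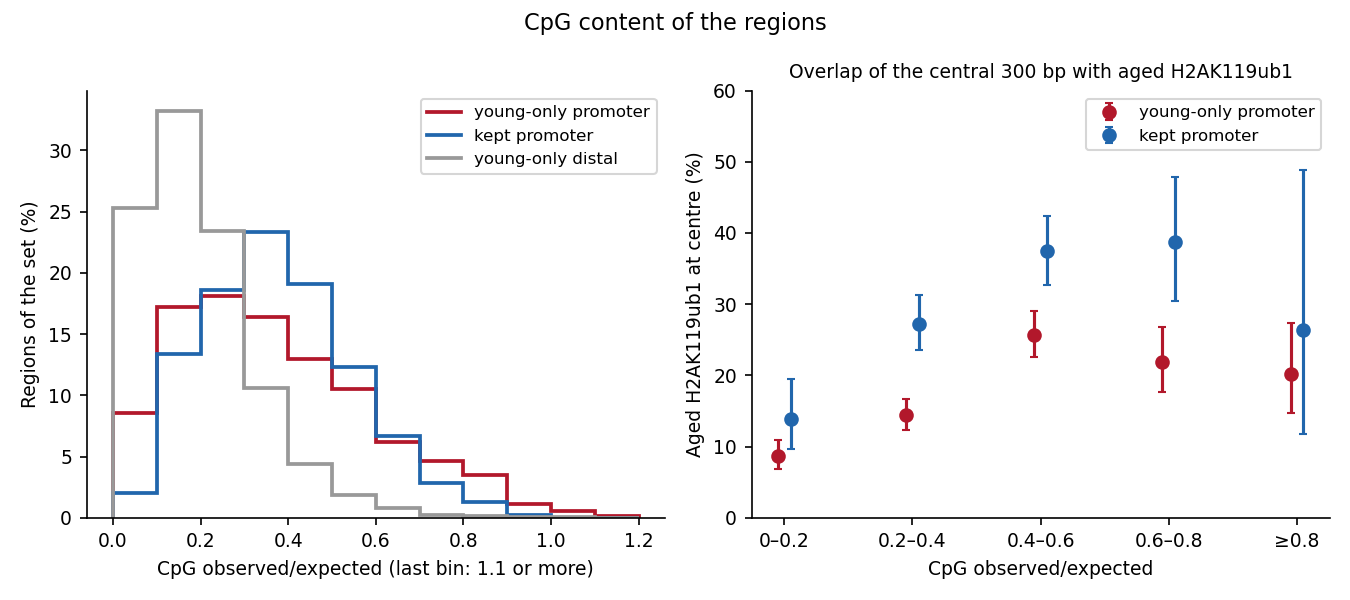
Left, distribution of the CpG observed/expected ratio (bins of 0.1) as a percentage of each set; right, percentage of promoter regions whose central 300 bp overlap an aged H2AK119ub1 peak, by CpG class, with 95% Wilson intervals. Distal regions concentrate below 0.3, and the aged H2AK119ub1 share is highest at ratios of 0.4 to 0.6 in young-only regions (25.7%). Its interval there overlaps those of the higher CpG classes.

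Regions with young H2AK119ub1 and the highest H3K27me3 values were at P2rx5, Cygb, Gdpd5, Kcnk15 and Efnb3. Cygb, the cytoglobin gene, had an H3K27me3 fold enrichment of 4.36 in 327 bp of intron (chr11:116654601-116654927), 65505 bp from the nearest aged region. Gdpd5, a glycerophosphodiesterase gene, had 4.24, and Efnb3, an ephrin ligand, had 4.08. These last 2 also overlapped an aged H2AK119ub1 peak, and thus were listed for H2AK119ub1 at both ages while their H3K27me3 region was listed only in young HSCs. Kcnk15, a potassium channel gene, had 4.00 and an aged H3K27me3 region 201 bp away.

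Young H3K4me3 and aged H2AK119ub1 met at 68 regions. The strongest by H3K27me3 was at B3gat2, a glucuronyltransferase gene of neural glycans, with a fold enrichment of 4.27 and a CpG ratio of 0.801 over chr1:23762248-23762881. Dchs2, a large cadherin gene, had 4.11 in only 241 bp (chr3:83127666-83127906). Rab3b, a GTPase of vesicle release, had 3.65 over a start site (chr4:108879115-108879908). Gpc5, a cell-surface proteoglycan, had 3.86, and its nearest aged region was 945066 bp away. Comp, a cartilage matrix protein, had 3.74, Cyp2s1, a cytochrome P450, 3.77, Pcdhgc3, a clustered protocadherin, 3.71, and Vwa5b2 3.82. The aged H2AK119ub1 fold enrichment at these 8 regions ran from 3.06 at Dchs2 to 4.06 at Rab3b.

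H3K4me3 was listed at both ages at 27 regions, of which 12 also had aged H2AK119ub1. Ptpn13, a tyrosine phosphatase gene, had the highest −log10 q-value for H3K27me3 among them (3.42) in a region of 200 bp with a CpG ratio of 0.923. Nrn1, a neurite growth factor, had 3.20, Pcdh10, a protocadherin, 3.14, Lrrc4c, a synaptic adhesion protein, 3.13, and Prss16, a thymic protease, 3.03. The H3K4me3 fold enrichment was higher in the young list at Ptpn13 (3.83 against 2.87), Nrn1 (5.10 against 3.48), Pcdh10 (4.20 against 2.96) and Prss16 (4.46 against 3.54) and lower at Lrrc4c (3.83 against 4.37). The lists were called separately, so these values are given side by side without a test.

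The regions lay within 1 kb of start sites of 2114 genes, 10.2% of the 20720 protein-coding genes on these chromosomes. Most regions (2830) were near 1 gene and 59 near 2 genes. A single region was found at 1468 genes, a pair at 501, and 3 or more at the remainder, with the most at Trim2, a neuronal ubiquitin ligase gene (8 regions over 6 start sites). Dpp6, an auxiliary subunit of potassium channels, and Cux2, a homeobox gene of cortical neurons, had 6 each. Pmp22 and Wnt7b had 5 each. Of these 5 genes, Cux2 alone had no aged H3K27me3 region at its promoters.

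A young-only region did not always mean a promoter without aged H3K27me3. At 649 of the 2114 genes, 30.7% (28.8 to 32.7%), another aged H3K27me3 region lay within 1 kb of a start site, and at the other 1465 there was none. A young region that was not young-only and narrow lay at 89.2% of the 649 promoters and at 11.5% of the 1465. The aged-free genes had aged H2AK119ub1 at 36.7% of promoters (34.2 to 39.2%) and the genes with aged H3K27me3 elsewhere at 55.6% (51.8 to 59.4%). The aged-free genes also had fewer start sites (mean 1.96 against 2.34) and a lower median CpG ratio beside them (0.525 against 0.584). Overlap was counted over all start sites of a gene, and the part of these differences was not tested. Aged H3K4me3 was at 11.5% of the aged-free and 8.94% of the other promoters, with overlapping intervals.

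Compared with all protein-coding genes, genes with a young-only region had less H3K4me3 and more H2AK119ub1 at their promoters. Young H3K4me3 was at 17.9% of them (379) against 35.4% of all genes, and aged H3K4me3 at 10.7% (227) against 24.4%. Young H2AK119ub1 was at 7.66% (162) against 2.00% of all genes, and aged H2AK119ub1 at 42.5% (898) against 14.4%. They stood between genes whose only young regions were kept or wide, which had aged H2AK119ub1 at 68.0% and young H3K4me3 at 22.1%, and genes without young H3K27me3, at 7.52% and 38.3%, for H2AK119ub1 but not for H3K4me3, where they were lowest. In a window from 250 bases before to 50 after the start site, the median CpG ratio was 0.549 (0.529 to 0.563) in genes with a young-only region, 0.632 (0.611 to 0.651) in genes with kept or wide regions only and 0.564 in all genes. By the CpG ratio of that window, 6.25% of genes below 0.2 had a young-only region, 17.0% of those from 0.4 to 0.6 and 7.65% of those at 0.8 or more. Genes of intermediate CpG content thus carried such regions most often.

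Gene families were then read against the 10.2% of all genes. Any young H3K27me3 region was at 15.8% of all promoters, and 64.8% of those genes had a young-only region. Ephrins and Eph receptors, which guide cell contacts, had a young-only region at 14 of 21 genes, 66.7% (45.4 to 82.8%). Of these 14, 11 had no aged H3K27me3 at the promoter. Among all 2114 genes with a young-only region, 1465 had none. In the whole family 14 genes had any young and 3 had any aged region. The highest −log10 q-values were at Ephb1 (6.46), Epha8 (4.47), Efnb3 (4.30) and Epha5 (3.53). Aged H2AK119ub1 was listed at 8 of the 14 promoters and young H3K4me3 at 3, against 42.5% and 17.9% of all genes with a young-only region.

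The FGF, WNT and BMP families of secreted signals were also above 10.2%, and were rich in young H3K27me3 as a whole. FGF ligands and receptors had young-only regions at 11 of 25 genes (44.0%), out of 17 with any young region, led by Fgf9, Fgf14, Fgf8 and Fgf20, and 9 of the 25 had an aged region. WNT ligands, receptors and antagonists had them at 18 of 46 (39.1%), out of 35 with any young region, with Wnt3a, Wnt8a, Wnt7b and Wnt5b at the head and 22 of 46 with an aged region. In the BMP, GDF and TGF-beta family it was 14 of 40 (35.0%), out of 23 with any young region, including Bmp8b (−log10 q-value 4.19), Gdf6, Bmp4 and Lefty2. Of these 14, 8 had aged H2AK119ub1, against 42.5% of all genes with a young-only region. Semaphorins and plexins had them at 6 of 27 (22.2%), out of 11 with any young region, namely Sema6d, Sema3e, Sema3f, Sema6b, Sema4a and Sema3c.

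Receptors for glutamate, GABA and glycine had young-only regions at 25 of 46 genes, 54.3% (40.2 to 67.8%), including Grin3b, Grm3 and Glrb. Of the 25, 10 were without an aged region at the promoter, against 1465 of all 2114 genes with a young-only region. In the whole family 23 of 46 genes had an aged region. Aminergic and cholinergic receptors had 21 of 67 (31.3%), with Hrh3 (3 regions), Adrb1, Chrna2 and Drd1. Potassium channels had 35 of 91 (38.5%), with Kcnk15, Kcng3, Kcnj4 and Kcng2, and sodium, calcium and chloride channels 12 of 50 (24.0%), including Cacna1s, Cacna1c and Asic1. Solute carriers, a broad class of transporters, had 48 of 370 (13.0%), including Slc26a4, Slc27a2, Slc13a3 and the iron transporter gene Slc11a2. Any young H3K27me3 region was at 35 of the 46 glutamate, GABA and glycine and 35 of the 67 aminergic and cholinergic receptor genes. It was at 62 of the 91 potassium and 26 of the 50 other channel genes, and at 76 of the 370 solute carriers. Among all genes with any young region, 64.8% had a young-only one.

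Structural genes differed among themselves. Keratins of skin and hair had young-only regions at 21 of 53 genes, 39.6% (27.6 to 53.1%). Of the 21, 17 had no aged region, against 1465 of all 2114 genes with a young-only region. Krt2 (5.45), Krt20, Krt222 and Krt71 had the highest −log10 q-values. No keratin promoter among the 21 had H3K4me3 at either age and 1 had aged H2AK119ub1. Among all genes with a young-only region, young and aged H3K4me3 were at 17.9% and 10.7% and aged H2AK119ub1 at 42.5%. Collagens had 16 of 42 (38.1%), with Col5a1, Col7a1, Col1a1 and Col4a3. Cadherins and protocadherins had 23 of 90 (25.6%), with Pcdh9, Pcdhgc3, Cdh10 and Pcdh10, and integrins 4 of 30 (13.3%), Itga7, Itgb8, Itga1 and Itga9. Olfactory and vomeronasal receptors, which lie in CpG-poor clusters, had 71 of 1453 (4.89%). Of the 71, 68 were aged-free and 1 had aged H2AK119ub1, against 1465 and 898 of all 2114 genes with a young-only region. The highest values in this family were at Olfr285 (4.87), Olfr1383, Olfr329-ps and Olfr288. Any young H3K27me3 region was at 25 of the 53 keratin, 26 of the 42 collagen and 34 of the 90 cadherin and protocadherin genes. It was at 6 of the 30 integrin genes and at 76 of the 1453 olfactory and vomeronasal receptor genes.

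**Figure D5:**
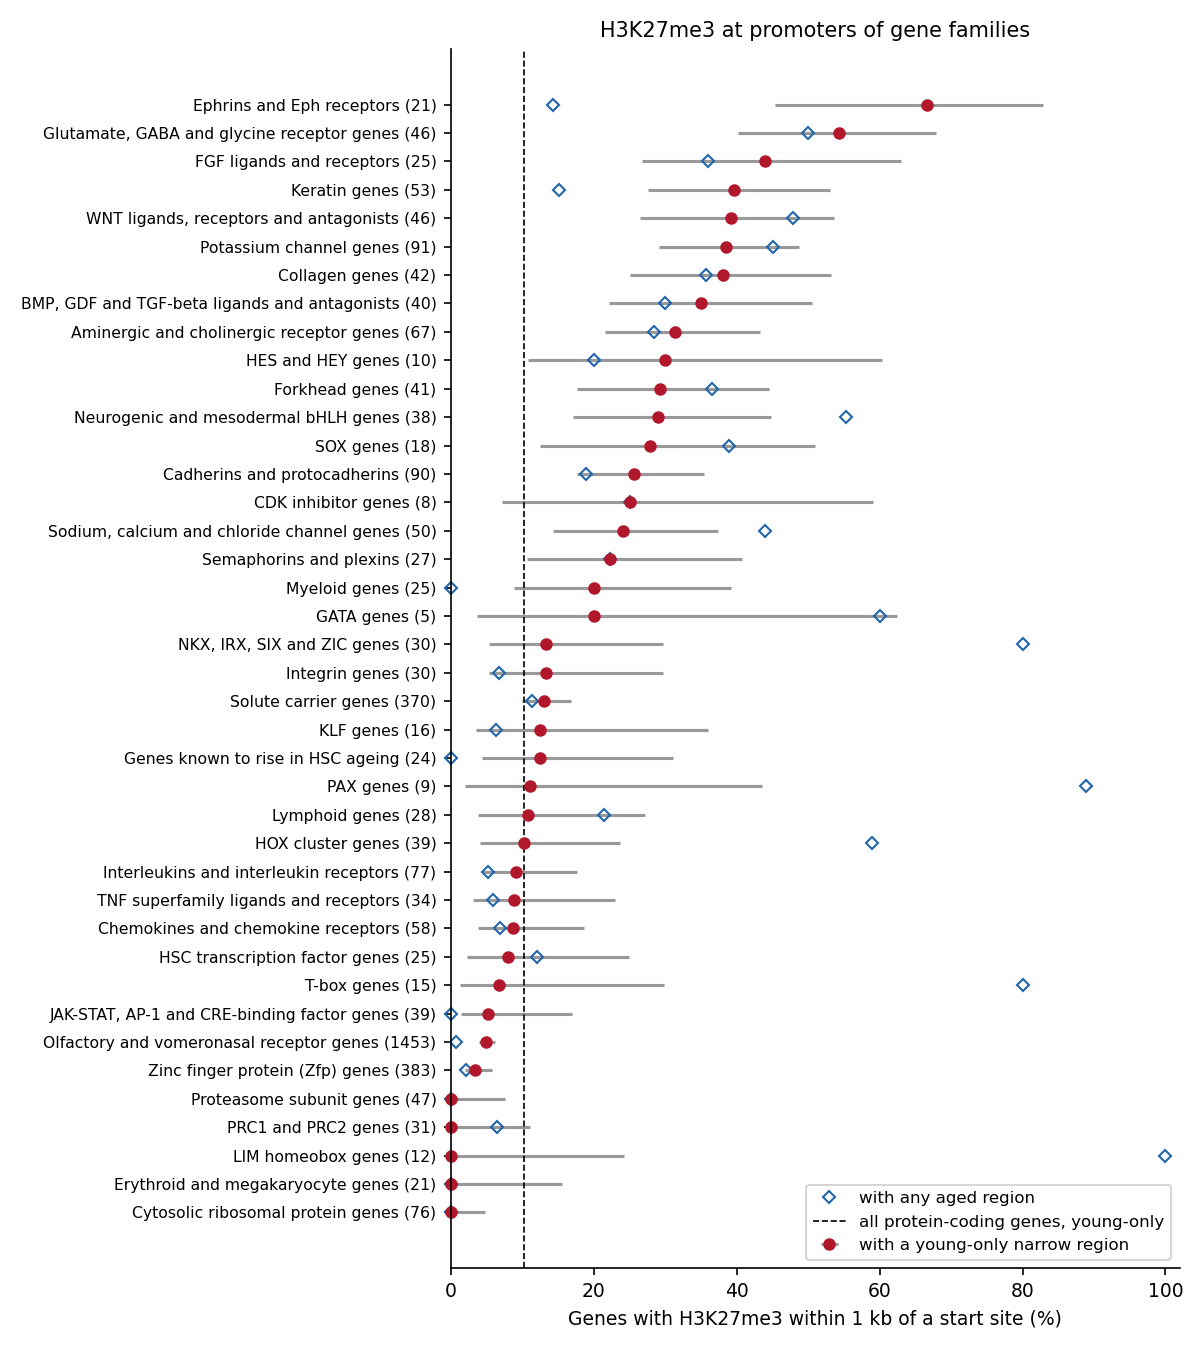
Percentage of genes in each of 40 gene lists with a young-only narrow H3K27me3 region within 1 kb of a start site (filled circles, with 95% Wilson intervals) and with any aged H3K27me3 region (open diamonds); the number of genes is given in brackets and the dashed line marks 10.2%, the young-only share of all protein-coding genes. Ephrins and Eph receptors reach 66.7%, while LIM homeobox genes stand at 0 young-only and have an aged region at 12 of 12 genes.

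Transcription factor families differed in their shares. LIM homeobox genes had no young-only region at any of 12 genes, an upper limit of 24.2%, and all 12 had both young and aged H3K27me3. T-box genes had 1 of 15, Tbx1, with 12 of 15 bearing an aged region, PAX genes 1 of 9, Pax4, with 8 of 9, and the NK, Iroquois, Zic and sine oculis homeobox genes 4 of 30, Six2, Irx5, Zic2 and Irx6, with 24 of 30. Among HOX cluster genes, 29 of 39 had any young region and 23 of 39 any aged region. A young-only region was at 4 of 39 (10.3%), close to the share of all genes. None of these 4 had an aged region at the promoter, against 30.7% of all genes with a young-only region. The 4 were Hoxb9 (3 regions, highest −log10 q-value 4.09), Hoxb6, Hoxb1 and Hoxa2. GATA genes had 1 of 5, Gata4. Higher shares of all genes were found in neurogenic and mesodermal bHLH genes (11 of 38, 28.9%, with Ascl5, Atoh7, Neurod2 and Olig1). Forkhead genes had 12 of 41 (29.3%, with Foxl1, Foxo6, Foxc2 and Foxj1). SOX genes had 5 of 18 (27.8%), namely Sox18, Sox7, Sox1, Sox6 and Sox10. These families were rich in young H3K27me3 as a whole, with any young region at 28 bHLH, 23 forkhead and 11 SOX genes. HES and HEY genes, a family that includes targets of Notch signaling, had 3 of 10, Hes3, Hes2 and Helt. KLF genes had 2 of 16, Klf15 and Klf4. Zfp zinc finger genes had 13 of 383 (3.39%), led by Zfp664, Zfp503, Zfp385c and Zfp536.

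Genes of blood cells were compared with the same 10.2%, and with the 8.20% of all genes that had an aged H3K27me3 region at the promoter. Of 25 myeloid genes, 5 (20.0%, interval 8.86 to 39.1%, which includes 10.2%) had a young-only region and 0 of the 25 had an aged one. They were Cebpa, the granulocyte regulator (2 regions, 2.68), Irf4, Irf8, Irf5 and Cd14. All 5 had aged H2AK119ub1 at the promoter and 4 had young H3K4me3, against 42.5% and 17.9% of all genes with a young-only region. In the whole myeloid list 5 of 25 had any young H3K27me3 region, 20.0% against 15.8% of all genes. Lymphoid genes had 3 of 28, Id2 (3.66), Id3 and Cd3e, and HSC transcription factor genes had 2 of 25, Erg and Gfi1, each with another aged region at the promoter. No region was found at 21 erythroid and megakaryocyte genes (upper limit 15.5%). Among 24 genes known to rise in HSC ageing there were 3, the metallothioneins Mt1 and Mt2 with 3 regions each and the cytokine receptor gene Osmr. Mt1 and Mt2 are neighbouring genes. An aged region was at 0 of the 24, and in lists of this size a count of 0 is close to the 8.20% of all genes. Lymphoid genes had any young H3K27me3 region at 9 of 28 and HSC transcription factor genes at 3 of 25. It was at 0 of the 21 erythroid and megakaryocyte genes and 4 of the 24 genes known to rise in HSC ageing.

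Immune signaling genes were near the level of all genes. Chemokines and their receptors had 5 of 58 (8.62%), Ackr3, Ccl11, Ccr10, Ccl8 and Cxcl16, and the highest was Ackr3 at 4.12. Interleukins and their receptors had 7 of 77 (9.09%), with Il11, Il17rb, Il22ra1 and Il17d at the head. TNF superfamily genes had 3 of 34 (8.82%), Tnfrsf19, Tnfrsf8 and Tnfsf13b. JAK-STAT, AP-1 and CRE-binding factor genes had 2 of 39, Batf3 and Atf3. With any young H3K27me3 region there were 8 of the 58 chemokine, 7 of the 77 interleukin and 3 of the 34 TNF superfamily genes. Of the 39 JAK-STAT, AP-1 and CRE-binding factor genes there were 2. CDK inhibitor genes, which restrain the cell cycle, had 2 of 8, out of 3 with any young region, Cdkn2c (3.07) and Cdkn2b (2.14). Of these, Cdkn2b had another aged H3K27me3 region at the promoter. Genes with functions common to all cells had none, with 0 of 76 cytosolic ribosomal protein genes (upper limit 4.81%), 0 of 47 proteasome subunit genes and 0 of 31 PRC1 and PRC2 genes. Of the Polycomb genes, 5 had a young H3K27me3 region of another kind.

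By chromosome, the young-only share ran from 63.5% of narrow promoter regions on chromosome 12 to 79.3% on chromosome 17. When only as many young regions as the aged list holds were taken, the highest by −log10 q-value, 1222 young-only promoter regions remained at 1046 genes, 57.2% of the narrow promoter regions left. When any aged region within 1 kb counted as present, 2210 regions remained at 1628 genes. The limit on list length thus removed more regions than the wider margin around aged regions.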

How the data were processed

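ChIP-seq peak lists of young and aged HSCs were analysed, 1 pooled list per mark and age. As the study's methods state, chromatin was cross-linked with formaldehyde, digested with micrococcal nuclease and sonicated, and reads were aligned to mm10 with Bowtie2. MACS2 2.2.6 is named in the submitters' processing notes, without its role or settings. The deposited lists give the fold enrichment of each peak as a linear ratio and its −log10 q-value, as the authors' peak caller wrote them. For broad regions these are means over the region. Which peaks are listed depends on the caller's threshold, read depth and treatment of duplicate or multiply aligned reads, so a region missing from a list may still carry the mark.

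Regions sharing 1 bp or more counted as overlapping. The code ran in Python 3.11.15, using scipy 1.17.1, pandas 2.3.3 and numpy 2.4.6. The count of members was checked with bedtools 2.31.1, and the interval code was tested on simulated data. Figures used matplotlib 3.10.9. Start sites were those of protein-coding transcripts in GENCODE M21 (basic set), and sequence came from the RefSeq FASTA of GRCm38.p6, whose chromosome coordinates are those of mm10. All 2889 members had sequence and none was filtered out. Shares carry Wilson 95% intervals and medians order-statistic 95% intervals. No test was made, because each group is 1 list. Overlap with a promoter was counted per gene over all its start sites.

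The members, the 40 gene lists (gene families by symbol, curated blood, ageing, cell cycle and Polycomb genes) and the comparisons were chosen with earlier results of these data known. Genes were named by rule: the 10 members of highest −log10 q-value; the highest 5 with young H2AK119ub1, 8 with aged H2AK119ub1 and young H3K4me3, and 5 with H3K4me3 at both ages; the 5 genes with most members and the 3 widest members; those nearest each limit; all genes of a list with up to 6 members or otherwise the first 4; and the marker genes. A few genes that the rule names are not reported here. Differential accessibility and expression lists of the study were not used here.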

Additional observations from a re-analysis of the deposited data

Results flagged for a closer look

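The X chromosome was outside the rule. There, 273 of 322 narrow promoter H3K27me3 regions of the young list had no overlap with an aged region, 84.8% (Wilson interval 80.5 to 88.3%), against 70.4% on chromosomes 1 to 19. The lists held no such region on the Y chromosome, and the mice were female by the study's methods. This count comes from data that the comparisons above did not use. The highest share on any of chromosomes 1 to 19 was 79.3%, on chromosome 17. On those chromosomes the share moved with the strength and width of the young calls, which were not examined on the X chromosome.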

How the results depend on the processing

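No paired analysis was possible because the lists are pooled over libraries, and no replicate was left out for the same reason. Of 80 values under an alternative for 10 results, 30 stayed within the interval of the value as reported or, for counts, within 1.5 times, and 50 did not. The cause was not tested.

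With young regions of −log10 q-value 2 or more there were 1731 young-only promoter regions, 62.2% of the narrow promoter regions, with a median GC content of 51.7%, a CpG ratio of 0.354, young H2AK119ub1 at 4.74% and aged H2AK119ub1 at 28.8%. With as many young as aged regions there were 1222 at 1046 genes, 57.2%, with 51.9% GC, a CpG ratio of 0.362, another aged region at 33.1% of genes, young H2AK119ub1 at 4.83% and aged H2AK119ub1 at 31.8%. With no aged region within 1 kb, the young-only share was 53.8%, GC 50.5%, the CpG ratio 0.313 and genes with another aged region 15.2%. A promoter of 500 bp gave 1841 regions, 68.4%, 53.0% GC, a CpG ratio of 0.387, another aged region at 17.1% of genes, young H3K4me3 at 6.30% and aged H2AK119ub1 at 25.3%. A promoter of 2 kb gave 4563 regions, 73.5%, 49.3% GC, a CpG ratio of 0.270, another aged region at 44.3% of genes, young H3K4me3 at 3.73%, aged H3K4me3 at 1.88% and aged H2AK119ub1 at 19.0%. Without a width limit the young-only share was 56.4%.

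For the overlaps, lists of equal length gave young H3K4me3 at 2.77% and aged H2AK119ub1 at 3.95%, and peaks of −log10 q-value 2 or more gave young and aged H2AK119ub1 at 1.21% and 8.07%. When the peak had to cover 50% of the region, young and aged H3K4me3 were at 1.18% and 0.312%, and young and aged H2AK119ub1 at 0.519% and 7.89%. With a peak within 1 kb these were 13.0%, 7.13%, 7.23% and 39.0%. Over the central 300 bp, an alternative chosen after seeing the data because kept regions are wider, they were 3.50%, 1.32%, 2.25% and 16.7%. Without read counts, absence from a list cannot be told apart from a call below the threshold.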
